A study of Homo sapiens with 8 samples.

Results

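The ATF4 module described here is a list of 38 genes of the amino acid and stress response that the transcription factor ATF4 leads. Its members were picked by gene symbol from the 60554 rows of the count files, and all 38 had enough counts to be tested, among 20238 tested genes in all. They fall into 10 stress factors, 11 enzymes of amino acid synthesis, 2 enzymes of arginine synthesis, 7 amino acid transporters, 6 cytosolic aminoacyl-tRNA synthetases and 2 other genes known as ATF4 targets. The list was chosen with earlier results of these data known, so counts of its members beside shares of all genes are descriptions only.

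ATF4 is made when eIF2 alpha kinases sense stress: GCN2 responds to uncharged tRNA, PERK to unfolded protein in the endoplasmic reticulum, HRI to heme loss and mitochondrial stress, and PKR to double-stranded RNA. Phosphorylated eIF2 slows translation in general but lets ribosomes reach the ATF4 reading frame, so ATF4 protein is set largely at the level of translation and its mRNA is only part of its control. With C/EBP partners, ATF4 then binds C/EBP-ATF response elements and raises genes for amino acid synthesis, uptake and tRNA charging, while CHOP (DDIT3), TRIB3 and GADD34 (PPP1R15A) serve cell death and feedback.

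RNA from 2 human prostate cancer cell lines was sequenced in bulk, DU145 (from a brain metastasis) and PC3 (from a bone metastasis), each as a docetaxel resistant and a sensitive variant. Docetaxel stabilises microtubules and is a standard drug for advanced prostate cancer. Resistant cells were kept in 10 nM docetaxel dissolved in DMSO and sensitive cells in 0.1% DMSO, all in RPMI 1640 medium with fetal bovine serum and antibiotics. There were 8 libraries, 2 in each of 4 groups: DU145 resistant, DU145 sensitive, PC3 resistant and PC3 sensitive. Each resistant variant is 1 derived line, so resistance, exposure to the drug and the history of that line cannot be told apart. Nothing in the labels says whether both libraries of a group were grown separately, so the p-values cover the spread seen between them, and that spread may be technical.

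Library totals ran between 31685148 and 43045127 counts, and mitochondrial transcripts took 0.501% to 2.07% of them. Levels are given as CPM (a gene's counts per 1000000 counts of its library). KLK3 (prostate specific antigen), a marker of luminal prostate cells, was at 0 CPM in all 8 libraries. Summed levels were 249 to 4155 CPM for 4 epithelial markers, 0.719 to 2.96 CPM for 3 leukocyte markers, 0.288 to 25.1 CPM for 2 endothelial markers and 4.34 to 34.6 CPM for 4 fibroblast markers. The epithelial marker KRT8 stood at 27.2 and 30.8 CPM in DU145 resistant cells, against 2150 and 1271 CPM in DU145 sensitive cells. KRT18 and KRT19 were also lower in DU145 resistant cells. EPCAM measured 18.6 and 17.5 CPM in DU145 resistant cells, against 21.6 and 20.2 CPM in DU145 sensitive cells. The endothelial marker PECAM1 stood at 13.0 and 24.997 CPM in PC3 resistant cells, against 6.34 and 6.79 CPM in PC3 sensitive cells. The other endothelial marker, CDH5, was at most 0.078 CPM in PC3. The part of these in the results was not tested. In bulk RNA, fewer cells making a transcript and less of it per cell cannot be told apart.

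The response element that ATF4 binds, and a separate motif, the E-box, were sought in RefSeq promoter windows of 300 bases. Each window held 250 bases before a gene's start and 50 after it (build GRCh38.p14). The search used the C/EBP-ATF response element as TGATGNAAN and the E-box as CACGTG, on both strands. SLC1A5 held both motifs, at separate positions, and in no member did the 2 share bases. The table held 34 of the 38 genes, all but PSPH, SHMT2, PYCR1 and GPT2. The response element was present in 10 of these 34 (29.4%), against 4.45% of all 27305 genes in the table. Counted by window, it was in 18.5% of the members' 54 windows, against 3.61% of all 35116 windows. The list was made of genes that ATF4 leads, so this contrast describes the list and is no separate support for it. The E-box was present in 5 of 34 (14.7%), against 8.77% of all genes. A match describes letters only. The 10 response elements are shown because ATF4 binds this element, though most of the 34 genes held none. Capitals mark the element, in the direction of the gene, so that an element on the other strand reads NTTNCATCA:
ATF3: ggtcaggaTGATGGAAGgctgtcat
CHAC1: cccctgccGTTGCATCActcctgcc
ASNS: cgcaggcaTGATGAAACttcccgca
SLC7A1: cgcactgcTGATGAAACctggcgcc
SLC3A2: caggactcCTTACATCAgctcc
SLC1A4: ggctcccgTTTGCATCAtctccagc
SLC1A5: gaagtggcTGATGCAAGctgtccag
AARS: ttctcgcaGTTGCATCAgccaagtt
GARS: acgcggcgATTTCATCAtgctccga
MARS: cggttccgGTTGCATCAgcgaggga

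CHAC1, AARS and MARS carried the same 9 letters, GTTGCATCA, and ASNS and SLC7A1 shared TGATGAAAC. The element lay 191 bases before the start in ATF3, 210 in CHAC1, 188 in AARS, 68 in ASNS and 34 in GARS, and at base 8 from the start in SLC7A1. Each distance is from the start of the window that held the element. ATF3 and GARS each had another window, at a different start, without it. ATF4 itself and ASS1 held an E-box and no response element in these windows. The windows are chr1:212565208-212565232 for ATF3, chr15:40953253-40953277 for CHAC1, chr7:97872460-97872484 for ASNS, chr16:70289678-70289702 for AARS and chr7:30594836-30594860 for GARS.

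Within each line, resistant and sensitive cells were compared with edgeR's quasi-likelihood test in 1 fit of all 8 libraries, and a gene is called higher or lower in resistant cells where its p-value, adjusted over all 20238 genes by Benjamini-Hochberg, is under 0.05. In DU145 the module leaned down. Of 38 genes, 12 were lower in resistant cells (15.4% of all genes were) and 2 were higher (12.4% of all genes), with a median log2 fold change of -0.50 against 0 over all genes tested. The members also moved together between the 2 libraries of a group, by a similar size. Their median log2 ratio of library 2 over library 1 was 0.47 in DU145 resistant and 0.44 in DU145 sensitive cells. The lower genes were ATF4, CEBPB, CHAC1, PSPH, PYCR1, CTH, ASS1, ASL, SLC7A5, GARS, WARS and VLDLR, and the higher ones were ATF3 and STC2. The count of lower genes was 7 without DU145 sensitive library 2 (median -0.20) and 7 without DU145 resistant library 1 (median -0.24), fits in which 10.5% of all genes were lower. Leaving out DU145 sensitive library 1 left 0 higher genes (9.27% of all genes), and DU145 resistant library 2 left 1 (10.7% of all genes).

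In PC3 the module leaned up. Of 38 genes, 12 were higher in resistant cells (18.6% of all genes were) and 4 were lower (17% of all genes), with a median log2 fold change of 0.33 against 0.01 over all genes tested. The members' median log2 ratio of library 2 over library 1 was -0.38 in PC3 resistant and 0.15 in PC3 sensitive cells. The higher genes were ATF4, ATF3, PPP1R15A, PHGDH, CBS, SLC7A5, SLC3A2, SLC1A4, AARS, GARS, VLDLR and STC2, and the lower ones were ATF5, PSAT1, ASS1 and WARS. Leaving out PC3 sensitive library 1 left 5 higher genes (median 0.25; 10.8% of all genes), PC3 resistant library 1 left 7 (median 0.09; 14.2% of all genes), and PC3 resistant library 2 left 2 lower genes (10% of all genes).

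**Figure D1:**
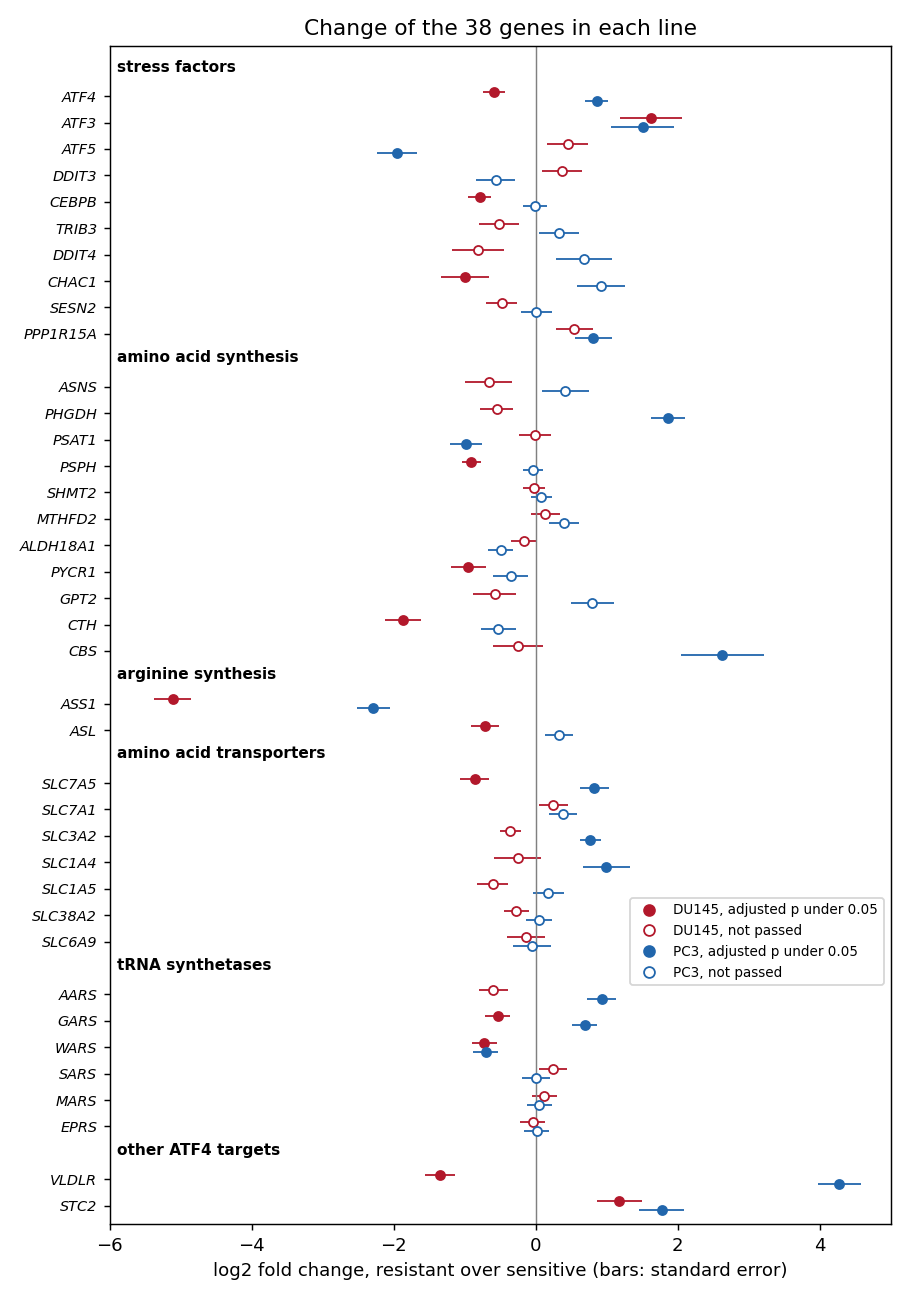
Log2 fold change of each of the 38 genes, resistant over sensitive, in DU145 (red) and PC3 (blue), by role, with bars for the standard error and filled points where the adjusted p was under 0.05. ASS1 lies farthest to the left in both lines, at -5.11 in DU145 and -2.29 in PC3, and VLDLR lies on opposite sides, at -1.35 in DU145 and 4.28 in PC3.

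Separation of the libraries gave a similar picture. In DU145 both resistant libraries lay below both sensitive ones for 16 of 38 genes (31.7% of all genes) and above them for 3 (29.6% of all genes). In PC3, 21 of 38 genes had both resistant libraries above the sensitive pair (40.9% of all genes) and 6 had both below it (30.6% of all genes).

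Among the 10 stress factors, DU145 resistant cells had 1 higher and 3 lower (all genes: 12.4% higher and 15.4% lower), and PC3 resistant cells 3 higher and 1 lower (all genes: 18.6% and 17%). ATF4 mRNA stood at 226 and 273 CPM in DU145 resistant cells, against 346 and 406 CPM in DU145 sensitive cells. In PC3 it stood at 331 and 256 CPM in resistant cells, against 141 and 161 CPM in sensitive cells. Neither pair of groups overlapped, and the 2 lines moved in opposite directions. The ATF4 log2 fold change was -0.59 ± 0.16 (standard error; adjusted p = 0.019, edgeR) in DU145 and 0.86 ± 0.16 (adjusted p = 0.0020) in PC3. The DU145 call was lost without sensitive library 2 or resistant library 1 (adjusted p up to 0.111), with values between -0.66 and -0.50, and the PC3 call held with any 1 of the 8 libraries left out.

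ATF3, an immediate stress factor and itself a target of ATF4, rose in both lines. It measured 30.3 and 92.6 CPM in DU145 resistant cells, against 13.2 and 26.2 CPM in DU145 sensitive cells. In PC3 it measured 30.0 and 21.3 CPM in resistant cells, against 7.18 and 9.66 CPM in sensitive cells. The groups did not overlap in either line, but the DU145 resistant libraries lay far apart. Its log2 fold change was 1.63 ± 0.44 (adjusted p = 0.018) in DU145 and 1.51 ± 0.45 (adjusted p = 0.022) in PC3. The DU145 value dropped to 0.72 without resistant library 2, where the call was lost, as it was without sensitive library 1. The PC3 call was lost without either sensitive library or without resistant library 1, with values between 1.25 and 1.73.

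ATF5, a further bZIP factor translated by the same route as ATF4, was lower in resistant cells of PC3. It measured 48.0 and 32.3 CPM in PC3 resistant cells, against 155 and 136 CPM in PC3 sensitive cells. In DU145 it measured 20.4 and 11.4 CPM in resistant cells, against 13.2 and 10.4 CPM in sensitive cells, and these groups overlapped. The PC3 log2 fold change was -1.96 ± 0.29 (adjusted p = 0.00049), which held with any 1 library left out. Exons of NUP62 on the opposite strand cover 19.5% of the exon bases of ATF5, and NUP62 measured 227 and 207 CPM in PC3 resistant cells, against 188 and 187 CPM in PC3 sensitive cells. No source used here states whether the counting used strand, so reads from the shared bases cannot be assigned to either gene.

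CEBPB, the C/EBP partner, fell in DU145 to 28.1 and 32.4 CPM in resistant cells, against 56.5 and 48.2 CPM in sensitive cells (log2 fold change -0.79 ± 0.16, adjusted p = 0.0053), and this call held in all leave-out fits. In PC3 it measured 37.2 and 32.9 CPM in resistant cells, against 28.8 and 37.0 CPM in sensitive cells, and did not pass. CHAC1, which breaks down glutathione, measured 5.26 and 10.1 CPM in DU145 resistant cells, against 11.3 and 19.3 CPM in DU145 sensitive cells. Its DU145 log2 fold change of -0.99 ± 0.33 barely passed (adjusted p = 0.048), and the call was lost in 4 of 8 leave-out fits: without DU145 sensitive library 2, DU145 resistant library 1 or either PC3 sensitive library. In PC3, CHAC1 measured 14.8 and 9.93 CPM in resistant cells, against 5.50 and 6.75 CPM in sensitive cells, a log2 fold change of 0.92 ± 0.34 that missed the threshold (adjusted p = 0.056).

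PPP1R15A (GADD34), which directs the dephosphorylation of eIF2 alpha, was higher in PC3 at 144 and 121 CPM in resistant cells, against 65.7 and 75.1 CPM in sensitive cells (log2 fold change 0.81 ± 0.26, adjusted p = 0.032). That call was lost without any 1 of the 4 PC3 libraries. The remaining stress factors passed in neither line. DDIT3 (CHOP) measured 18.5 and 26.6 CPM in DU145 resistant cells, against 13.3 and 21.6 CPM in DU145 sensitive cells, and 12.5 and 14.2 CPM in PC3 resistant cells, against 14.1 and 23.0 CPM in PC3 sensitive cells. Its exons share 27.2% of their bases with MARS on the opposite strand, and MARS counts were 1059% to 2420% of those of DDIT3. Exons of 16 of the 38 members overlap those of another gene, for 14 of them on the opposite strand. The limit on assigning reads given for ATF5 holds for these too. TRIB3, the pseudokinase that restrains ATF4, had log2 fold changes of -0.52 ± 0.28 (adjusted p = 0.21) in DU145 and 0.33 ± 0.28 (adjusted p = 0.41) in PC3. For DDIT4 (REDD1), an inhibitor of mTORC1, they were -0.81 ± 0.36 (adjusted p = 0.12) and 0.68 ± 0.40 (adjusted p = 0.21). SESN2, another mTORC1 inhibitor, lay between 11.0 and 24.4 CPM over the 8 libraries, with adjusted p = 0.13 in DU145 and 0.99 in PC3.

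**Figure D2:**
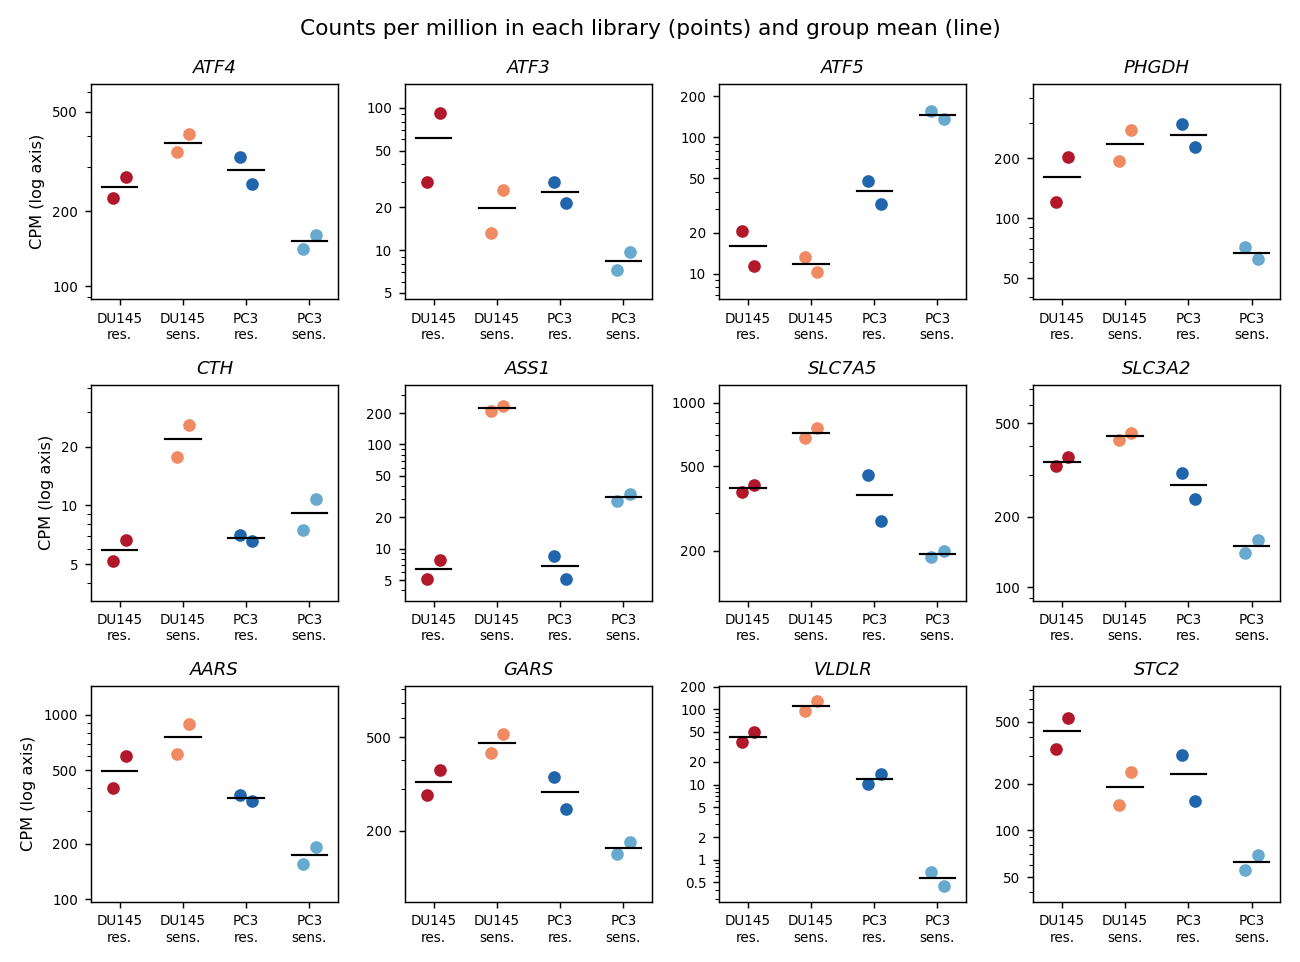
CPM on log axes in each library (points, 2 per group) with the group mean (line) for 12 members, in DU145 resistant, DU145 sensitive, PC3 resistant and PC3 sensitive cells. ATF4, SLC7A5, GARS and VLDLR are lower in resistant than sensitive cells of DU145 and higher in those of PC3, whereas ASS1 is lower in resistant cells of both lines.

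Among the 11 synthesis enzymes, DU145 resistant cells had 0 higher and 3 lower (all genes: 12.4% higher and 15.4% lower), and PC3 resistant cells 2 higher and 1 lower (all genes: 18.6% and 17%). The serine pathway did not move as 1 block. PHGDH, its first enzyme, measured 297 and 227 CPM in PC3 resistant cells, against 71.5 and 62.5 CPM in PC3 sensitive cells. In DU145 it measured 121 and 202 CPM in resistant cells, against 194 and 279 CPM in sensitive cells. The PC3 groups were well apart, whereas the DU145 groups overlapped. PHGDH rose in PC3 with a log2 fold change of 1.86 ± 0.24 (adjusted p = 0.00020), held in every leave-out fit, and had a DU145 value of -0.55 ± 0.23 (adjusted p = 0.10).

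PSAT1, the enzyme after PHGDH, went the other way in PC3, at 71.9 and 46.4 CPM in resistant cells, against 107 and 112 CPM in sensitive cells. Its log2 fold change was -0.99 ± 0.23 (adjusted p = 0.0065), and the call was lost without PC3 resistant library 2 (adjusted p = 0.054). In DU145 PSAT1 measured 533 and 749 CPM in resistant cells, against 540 and 756 CPM in sensitive cells, nearly the same pair of values in both groups. PSPH, the last enzyme of the pathway, was lower in DU145 at 34.9 and 36.6 CPM in resistant cells, against 64.2 and 70.6 CPM in sensitive cells (log2 fold change -0.90 ± 0.13, adjusted p = 0.00073), in all leave-out fits. In PC3 PSPH measured 46.3 and 40.7 CPM in resistant cells, against 39.8 and 43.5 CPM in sensitive cells. SHMT2 and MTHFD2, which carry serine carbon into mitochondrial folate, passed in neither line, with adjusted p between 0.16 and 0.93.

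CTH, which makes cysteine from cystathionine, measured 5.20 and 6.65 CPM in DU145 resistant cells, against 17.7 and 25.9 CPM in DU145 sensitive cells. This was 3.66-fold lower (log2 fold change -1.87 ± 0.25, adjusted p = 0.00042) and held in every leave-out fit. In PC3 the levels were 7.04 and 6.56 CPM in resistant cells, against 7.47 and 10.8 CPM in sensitive cells, with a log2 fold change of -0.52 ± 0.25 (adjusted p = 0.13). CBS, the enzyme that makes cystathionine, had few counts in PC3, with 30 and 21 counts in resistant libraries, against 2 and 4 counts in sensitive libraries. The ratio of the depth-scaled sums was 6.90 (95% interval 2.96 to 19.7, counting error only), and the fitted log2 fold change was 2.63 ± 0.59 (adjusted p = 0.0059), lost without PC3 sensitive library 1. In DU145 CBS measured 2.48 and 4.81 CPM in resistant cells, against 3.73 and 4.92 CPM in sensitive cells. A near-identical copy, CBSL, held 0% to 12.5% of the counts of both rows. How reads that match both copies were counted is not stated, so few counts need not mean little CBS RNA.

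PYCR1, which makes proline, was lower in DU145 at 91.8 and 141 CPM in resistant cells, against 168 and 283 CPM in sensitive cells (log2 fold change -0.95 ± 0.24, adjusted p = 0.014). That call was lost without sensitive library 2 or resistant library 1. ASNS, asparagine synthetase and a classical ATF4 target, did not pass in either line. It measured 87.7 and 164 CPM in DU145 resistant cells, against 128 and 270 CPM in DU145 sensitive cells, and 109 and 76.8 CPM in PC3 resistant cells, against 58.0 and 72.3 CPM in PC3 sensitive cells. Its log2 fold changes were -0.66 ± 0.33 (adjusted p = 0.17) in DU145 and 0.41 ± 0.33 (adjusted p = 0.36) in PC3. GPT2, the mitochondrial alanine aminotransferase, had -0.58 ± 0.30 (adjusted p = 0.18) in DU145 and 0.80 ± 0.30 (adjusted p = 0.061) in PC3. ALDH18A1, the first enzyme of proline synthesis, lay between 77.8 and 150 CPM over all libraries and passed in neither line.

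The gene with the largest decrease of the module in either line was ASS1, argininosuccinate synthase, the rate-limiting step for making arginine from citrulline. Cells without it depend on arginine from outside. ASS1 lies at chr9:130444961-130501274 on the plus strand (GRCh38). Its level was 5.08 and 7.72 CPM in DU145 resistant cells, against 211 and 234 CPM in DU145 sensitive cells. In PC3 it was 8.55 and 5.16 CPM in resistant cells, against 28.8 and 33.8 CPM in sensitive cells. The groups were far apart in both lines, and the 4 resistant libraries lay within a narrow range of each other. ASS1 fell by 5.11 ± 0.26 on the log2 scale in DU145 (34.6-fold lower, adjusted p = 8.1e-07) and by 2.29 ± 0.23 in PC3 (4.88-fold lower, adjusted p = 4.1e-05). Over the leave-out fits the value lay between -5.36 and -4.90 in DU145 and between -2.69 and -1.98 in PC3. The 10 ASS1 pseudogene rows held 27 to 50 counts per library, which was 0.356% to 22.0% of the counts of ASS1 and its copies together. No source used here states how reads that match several copies were counted.

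The 250 bases before the ASS1 start at that position, chr9:130444711-130444960 (RefSeq, GRCh38.p14, plus strand), are shown because no other member changed as much in DU145, with the E-box in capitals:
ASS1 promoter: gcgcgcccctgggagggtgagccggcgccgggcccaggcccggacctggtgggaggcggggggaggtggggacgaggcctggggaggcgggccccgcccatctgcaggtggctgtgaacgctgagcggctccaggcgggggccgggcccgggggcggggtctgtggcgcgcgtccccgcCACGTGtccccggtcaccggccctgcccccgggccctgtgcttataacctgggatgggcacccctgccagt
The E-box lay 71 bases before the start, and G and C made up 78.8% of the stretch.

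ASL, the lyase that completes arginine synthesis, changed less. It measured 8.68 and 8.96 CPM in DU145 resistant cells, against 15.8 and 13.3 CPM in DU145 sensitive cells (log2 fold change -0.71 ± 0.20, adjusted p = 0.022), a call lost without DU145 sensitive library 1 or either DU145 resistant library. In PC3 it measured 19.3 and 17.2 CPM in resistant cells, against 14.9 and 12.3 CPM in sensitive cells, with a log2 fold change of 0.32 ± 0.20 (adjusted p = 0.23).

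Among the 7 transporters, DU145 resistant cells had 0 higher and 1 lower (all genes: 12.4% higher and 15.4% lower), so the lower share was near that of all genes, and PC3 resistant cells 3 higher and 0 lower (all genes: 18.6% and 17%). SLC7A5 (LAT1), the light chain that imports large neutral amino acids, measured 379 and 410 CPM in DU145 resistant cells, against 683 and 759 CPM in DU145 sensitive cells. In PC3 it measured 457 and 275 CPM in resistant cells, against 186 and 200 CPM in sensitive cells. It was thus lower in resistant DU145 (log2 fold change -0.86 ± 0.20, adjusted p = 0.0098) and higher in resistant PC3 (0.82 ± 0.20, adjusted p = 0.0096). The DU145 call held in all leave-out fits, and the PC3 call was lost without sensitive library 1 or resistant library 1, where the value was 0.42.

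SLC3A2 (4F2hc), the heavy chain that pairs with SLC7A5, rose in PC3 to 307 and 238 CPM in resistant cells, against 140 and 158 CPM in sensitive cells (log2 fold change 0.77 ± 0.15, adjusted p = 0.0027), in all leave-out fits. In DU145 it measured 328 and 359 CPM in resistant cells, against 425 and 457 CPM in sensitive cells, groups that did not overlap but did not pass (-0.35 ± 0.15, adjusted p = 0.10). SLC1A4 (ASCT1), a carrier of alanine, serine and cysteine, stood at 52.4 and 47.2 CPM in PC3 resistant cells, against 23.5 and 23.2 CPM in PC3 sensitive cells (log2 fold change 0.99 ± 0.33, adjusted p = 0.039), and lost its call without any 1 of the 4 PC3 libraries. The cationic carrier SLC7A1, the glutamine carriers SLC1A5 and SLC38A2 and the glycine carrier SLC6A9 passed in neither line, with adjusted p between 0.059 and 0.91.

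Of the 6 tRNA synthetases, DU145 resistant cells had 0 higher and 2 lower (all genes: 12.4% higher and 15.4% lower), and PC3 resistant cells 2 higher and 1 lower (all genes: 18.6% and 17%). GARS (glycine) measured 284 and 365 CPM in DU145 resistant cells, against 427 and 515 CPM in DU145 sensitive cells, and 338 and 248 CPM in PC3 resistant cells, against 160 and 179 CPM in PC3 sensitive cells. Its log2 fold change was -0.54 ± 0.17 (adjusted p = 0.042) in DU145 and 0.69 ± 0.18 (adjusted p = 0.011) in PC3. The DU145 call held in 3 of 8 leave-out fits, and was lost without either DU145 sensitive library, DU145 resistant library 1 or either PC3 sensitive library. The PC3 call was lost without sensitive library 1 or resistant library 1.

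AARS (alanine) rose in PC3 to 368 and 339 CPM in resistant cells, against 155 and 192 CPM in sensitive cells (log2 fold change 0.93 ± 0.21, adjusted p = 0.0055), lost without sensitive library 1 (adjusted p = 0.053). In DU145 it measured 403 and 596 CPM in resistant cells, against 615 and 899 CPM in sensitive cells, and just missed the threshold (-0.60 ± 0.21, adjusted p = 0.052). WARS (tryptophan), which interferon also raises, was lower in resistant cells of both lines, by a log2 fold change of -0.73 ± 0.18 (adjusted p = 0.011) in DU145 and -0.71 ± 0.18 (adjusted p = 0.010) in PC3. The WARS call was lost without DU145 sensitive library 2 in DU145, and without PC3 sensitive library 2 or PC3 resistant library 2 in PC3. SARS (serine), MARS (methionine) and EPRS (glutamate and proline) passed in neither line, with adjusted p between 0.39 and 0.98.

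VLDLR, a lipoprotein receptor that ATF4 is known to induce, differed most between the lines among the 38 genes. It measured 36.5 and 50.4 CPM in DU145 resistant cells, against 94.1 and 128 CPM in DU145 sensitive cells. In PC3 it measured 10.2 and 13.8 CPM in resistant cells, against 0.695 and 0.442 CPM in sensitive cells (437 and 533 counts, against 24 and 14). PC3 sensitive cells thus held 1.67% and 1.06% of the gene's mean over the 8 libraries. The log2 fold change was -1.35 ± 0.21 (adjusted p = 0.0011) in DU145 and 4.28 ± 0.30 (19.4-fold higher, adjusted p = 3.0e-06) in PC3, and both held in all leave-out fits.

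STC2, stanniocalcin 2, a secreted glycoprotein of the stress response, also rose in both lines. It measured 334 and 529 CPM in DU145 resistant cells, against 145 and 237 CPM in DU145 sensitive cells, and 304 and 155 CPM in PC3 resistant cells, against 55.6 and 69.6 CPM in PC3 sensitive cells. The groups did not overlap in either line. The log2 fold change was 1.18 ± 0.31 (adjusted p = 0.018) in DU145 and 1.77 ± 0.32 (adjusted p = 0.0018) in PC3. The DU145 call was lost without sensitive library 1 or resistant library 2, and the PC3 call held throughout.

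Whether the lines differed was tested as the PC3 change minus the DU145 change in the same fit. The difference was above 0 for 15 of 38 genes (18.5% of all genes) and below 0 for 2 (15.9% of all genes), with a median of 0.78 against 0.03 over all genes. Without DU145 sensitive library 2 the median was 0.49, with 13 genes above 0 (14.8% of all genes) and 3 below 0 (11.1% of all genes). ATF4, SLC7A5, GARS and VLDLR were lower in DU145 and higher in PC3, and the difference passed for each: 1.44 ± 0.22 for ATF4 (adjusted p = 0.00076), 1.69 ± 0.29 for SLC7A5 (adjusted p = 0.0013), 1.22 ± 0.25 for GARS (adjusted p = 0.0034) and 5.63 ± 0.37 for VLDLR (adjusted p = 2.8e-06). These 4 differences held with any 1 library left out. PHGDH (2.41 ± 0.33), CBS (2.88 ± 0.69), SLC3A2 (1.12 ± 0.21) and AARS (1.53 ± 0.29) were higher in PC3 without passing in DU145, and all differed between the lines, CBS not without PC3 sensitive library 1. ASS1 fell less in PC3, by a difference of 2.83 ± 0.32 (adjusted p = 0.00010).

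A further 5 genes were lower in DU145, did not pass in PC3 and differed: CEBPB, CHAC1, PSPH, CTH and ASL, with differences between 0.78 and 1.91. CHAC1 and PSPH kept this in every leave-out fit, CTH lost it without DU145 sensitive library 2 or PC3 sensitive library 1, ASL without DU145 sensitive library 1 or PC3 sensitive library 2, and CEBPB without library 1 of any of the 4 groups. GPT2 passed for the difference alone (1.38 ± 0.43, adjusted p = 0.029), and lost this without DU145 sensitive library 2, DU145 resistant library 1, PC3 resistant library 1 or either PC3 sensitive library. The 2 genes with a negative difference were ATF5 (-2.41 ± 0.40, adjusted p = 0.0012) and PSAT1 (-0.97 ± 0.32, adjusted p = 0.035). That of PSAT1 was lost without DU145 sensitive library 1, library 2 of either resistant group or either PC3 sensitive library. ATF3, STC2 and WARS, called in the same direction in both lines, did not pass for the difference (adjusted p between 0.33 and 0.97). For 15 genes nothing passed in either line or for the difference: DDIT3, TRIB3, DDIT4, SESN2, ASNS, SHMT2, MTHFD2, ALDH18A1, SLC7A1, SLC1A5, SLC38A2, SLC6A9, SARS, MARS and EPRS.

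Across the 38 genes, the log2 fold changes of the lines had a Pearson correlation of 0.27, against -0.05 over all genes tested. Their Spearman correlation was 0.03. Both are given as a description across genes, which are not replicates. The same sign was seen for 16 of 38 genes (42.1%), against 46.3% of all genes tested.

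The lines also differed in their sensitive cells. In PC3 sensitive cells 26 of 38 genes were lower than in DU145 sensitive cells (29.2% of all genes were) and 2 were higher (28.6% of all genes), with a median log2 fold change of -1.13 against -0.03 over all genes. This comparison shares its libraries with those above, so its values are given beside them and are no separate support. The log2 fold change of PC3 sensitive over DU145 sensitive cells was -7.52 ± 0.31 for VLDLR, -5.45 ± 0.53 for CBS, -4.26 ± 0.42 for DDIT4, -2.76 ± 0.23 for ASS1, -2.50 ± 0.23 for PSAT1, -2.06 ± 0.21 for AARS, -1.84 ± 0.21 for SLC7A5 and -1.25 ± 0.16 for ATF4. ATF5 was the exception, at 155 and 136 CPM in PC3 sensitive cells, against 13.2 and 10.4 CPM in DU145 sensitive cells (log2 fold change 3.68 ± 0.31, adjusted p = 3.1e-06), and SLC38A2 was also higher (0.53 ± 0.18, adjusted p = 0.026), a call lost without DU145 sensitive library 1 or either PC3 sensitive library. For ATF4, the 2 PC3 resistant libraries (331 and 256 CPM) lay near the 2 DU145 resistant libraries (226 and 273 CPM), while the sensitive libraries of the lines did not overlap.

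**Figure D3:**
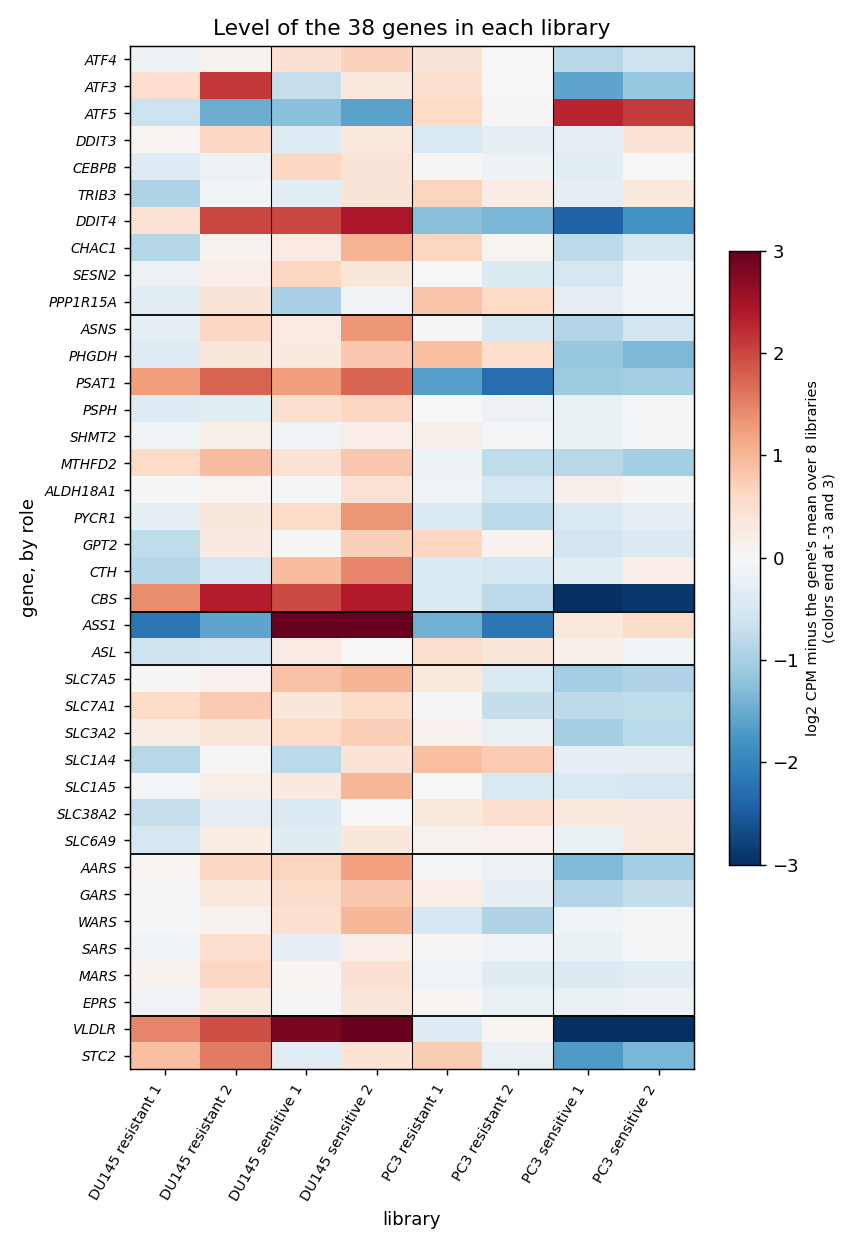
Level of the 38 genes in each of the 8 libraries as log2 CPM minus the gene's mean over all libraries (red above, blue below, colors ending at -3 and 3), with genes in rows by role and libraries in columns by group. Most rows are blue in the 2 PC3 sensitive libraries, where 26 genes were lower than in DU145 sensitive cells, and ATF5 is red there.

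The 2 libraries of a group differed in most members at once. In DU145, library 2 was above library 1 for 37 of 38 genes in resistant cells (58.8% of all genes) and 34 of 38 in sensitive cells (51.4% of all genes). It was above in both groups for 34 of 38 (89.5%), against 38.3% of all genes tested. In PC3, library 2 was above library 1 for 4 of 38 genes in resistant cells (48.5% of all genes) and 29 of 38 in sensitive cells (54% of all genes). Both PC3 groups had library 2 above for 2 genes (5.26%, against 28.7% of all genes). On the log2 scale of CPM plus 0.5, library 2 over library 1 had a median over the members of 0.47 in DU145 resistant cells, 0.44 in DU145 sensitive cells, -0.38 in PC3 resistant cells and 0.15 in PC3 sensitive cells. The median over all genes was between 0 and 0.08 in size in each group. The part of this shift in the calls that changed when a library was left out was not tested.

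**Figure D4:**
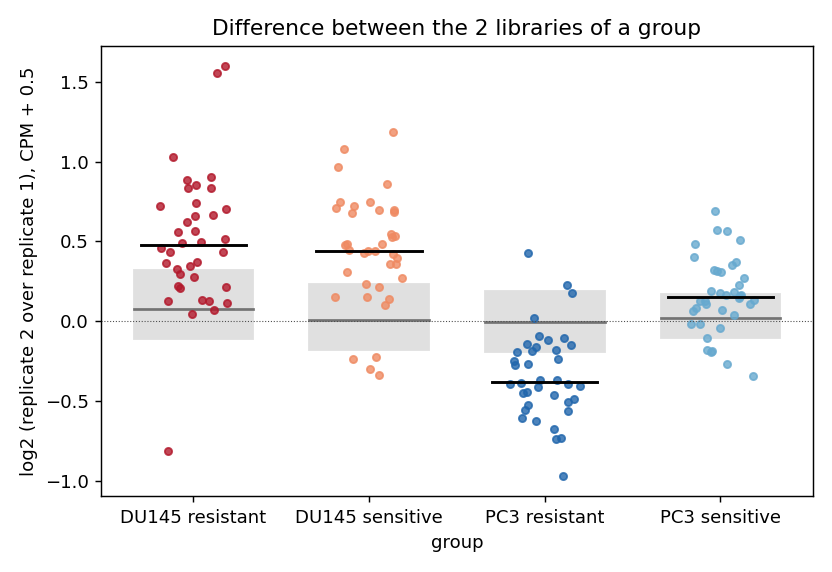
Log2 ratio of library 2 over library 1 within each group (CPM plus 0.5), with a point per gene of the module, a black line at their median, and a grey box and line for the quartiles and median of all 20238 genes. The points lie mostly above 0 in both DU145 groups, with medians of 0.47 and 0.44, and mostly below 0 in PC3 resistant cells, with a median of -0.38.

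Upstream of ATF4, a further list held 17 genes of the eIF2 kinases, their sensors and eIF2B. DU145 resistant cells had 6 of them higher and 1 lower (all genes: 12.4% higher and 15.4% lower), and PC3 resistant cells 1 higher and 5 lower (all genes: 18.6% and 17%). EIF2AK1 (HRI) was the lower one in DU145, at 120 and 134 CPM in resistant cells, against 422 and 442 CPM in sensitive cells (log2 fold change -1.76 ± 0.13, adjusted p = 8.0e-06). In PC3, EIF2AK1 measured 238 and 230 CPM in resistant cells, against 192 and 178 CPM in sensitive cells. EIF2S2, the beta subunit of eIF2, rose in both lines (0.95 ± 0.12 in DU145, 0.40 ± 0.12 in PC3), and GCN1, which activates GCN2, fell in PC3 (-0.86 ± 0.14, adjusted p = 0.00076). The PC3 call of EIF2S2 was lost without any 1 of the 4 PC3 libraries.

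Of 14 further cytosolic tRNA synthetases, resistant DU145 cells had 5 higher and 1 lower (all genes: 12.4% higher and 15.4% lower), and resistant PC3 cells 3 of each, near the shares of all genes (all genes: 18.6% and 17%). LARS (leucine) rose in both lines (0.69 ± 0.16 in DU145, lost without DU145 sensitive library 1, and 1.26 ± 0.16 in PC3). HARS (histidine) and RARS (arginine) were higher in DU145 (0.86 ± 0.15 and 0.69 ± 0.13) and lower in PC3 (-0.82 ± 0.15 and -0.80 ± 0.13), the reverse of GARS. Of 17 mitochondrial synthetases, 0 were higher and 3 lower in DU145, FARS2 among them (all genes: 12.4% and 15.4%). In PC3, 1 was higher and 3 lower, HARS2 among them (all genes: 18.6% and 17%), and the lower shares in both lines were near those of all genes. Leaving out DU145 sensitive library 1 or either DU145 resistant library ended the call of FARS2.

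A list of 23 further ATF4 targets had 21 tested, with 4 of them higher and 5 lower in DU145 resistant cells (all genes: 12.4% higher and 15.4% lower), and 8 higher and 2 lower in PC3 resistant cells (all genes: 18.6% and 17%). The difference between the lines was above 0 for 11 and below 0 for 3 (all genes: 18.5% and 15.9%), the share below 0 being near that of all genes. JDP2, a bZIP repressor, was like ATF4 lower in DU145 and higher in PC3, at 8.91 and 15.6 CPM in DU145 resistant cells, against 31.7 and 44.7 CPM in DU145 sensitive cells, and 3.30 and 2.05 CPM in PC3 resistant cells, against 0.695 and 0.663 CPM in PC3 sensitive cells. Its log2 fold change was -1.64 ± 0.29 in DU145 and 1.87 ± 0.37 in PC3. NUPR1, a stress-induced chromatin protein, was lower in DU145 at 1.58 and 2.33 CPM in resistant cells, against 12.2 and 38.2 CPM in sensitive cells (-3.67 ± 0.52, adjusted p = 0.00051). NDRG1, also induced by hypoxia, was higher in PC3 (1.28 ± 0.45, adjusted p = 0.046), but not without PC3 sensitive library 1 (0.85) or PC3 resistant library 2 (0.83).

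Of 14 further one-carbon genes, DU145 resistant cells had 1 higher and 3 lower (all genes: 12.4% higher and 15.4% lower), and PC3 resistant cells 1 of each (all genes: 18.6% and 17%). ALDH1L2, the mitochondrial formyltetrahydrofolate dehydrogenase, was lower in DU145 at 2.43 and 4.44 CPM in resistant cells, against 53.5 and 97.5 CPM in sensitive cells (-4.46 ± 0.38, adjusted p = 2.1e-05). SFXN1, the mitochondrial serine carrier, was higher in DU145 (0.52 ± 0.14), a call lost without DU145 sensitive library 2 or DU145 resistant library 1.

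The list of arginine, proline and glutamate genes beside the members had 20 genes, 18 of them tested, of which DU145 resistant cells had 1 higher and 3 lower (all genes: 12.4% higher and 15.4% lower), while PC3 resistant cells had 6 higher and 4 lower (all genes: 18.6% and 17%), and the lower shares were near those of all genes. PRODH, which starts the breakdown of proline, measured 3.01 and 2.74 CPM in DU145 resistant cells, against 26.9 and 19.9 CPM in DU145 sensitive cells, and 1.95 and 2.72 CPM in PC3 resistant cells, against 0.492 and 0.537 CPM in PC3 sensitive cells. Its log2 fold change was -3.02 ± 0.27 in DU145 and 2.08 ± 0.32 in PC3. CPS1, which makes carbamoyl phosphate in the urea cycle, was lower in both lines (-1.26 ± 0.32 and -0.62 ± 0.19), and ALDH4A1, the step after PRODH, was lower in DU145 (-1.11 ± 0.18). The CPS1 call was lost in DU145 without sensitive library 2 or resistant library 1, and in PC3 without sensitive library 2 or either resistant library.

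The XBP1 and ATF6 arms of the unfolded protein response, which run beside the PERK and ATF4 arm, had 19 genes tested, and resistant DU145 cells had 2 of them higher and 1 lower (all genes: 12.4% higher and 15.4% lower), while resistant PC3 cells had 3 higher and 2 lower (all genes: 18.6% and 17%). These shares were at or below those of all genes. HYOU1, an endoplasmic reticulum chaperone, rose in both lines (0.99 ± 0.13 in DU145 and 0.67 ± 0.13 in PC3). EDEM1, which sorts misfolded glycoproteins for breakdown, fell in DU145 (-1.14 ± 0.16), and XBP1 rose in PC3 (0.65 ± 0.16), a call lost without PC3 sensitive library 1 or PC3 resistant library 2. The medians of these 7 further lists lay between -0.31 and 0.32 in DU145 and between -0.21 and 0.39 in PC3.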

How the data were processed

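Bulk mRNA of 8 libraries (SMART-seq kit) was sequenced, and the authors deposited whole-number read counts per gene, 1 table per library. Per the labels' processing notes, reads were aligned with Bowtie to hg38; the sources used here name no counting tool, strand setting or handling of reads that match several genes, nor whether docetaxel was withdrawn before the bulk harvest. The study's methods describe a week in medium free of the drug before harvest of its single-cell samples of these lines.

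The counts were scaled by TMM and tested with edgeR 4.0.16 (R 4.3.3), with 1 coefficient per group, a low-count filter by group (20238 of 60554 rows kept), quasi-likelihood F-tests and Benjamini-Hochberg adjustment over all tested genes at 0.05. The common biological coefficient of variation came to 17.1%, on 4 residual degrees of freedom. The difference between the lines was an interaction contrast. Standard errors are of the log2 fold change, and CPM are counts over total counts. Depth of 31685148 to 43045127 counts limits precision only for genes with few counts, such as CBS in PC3. The steps were tested on simulated data.

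The members and lists were chosen with earlier results of these data known. Values per library are given for ATF4, ASS1 and members called with an absolute log2 fold change of at least 1 in either line or called with opposite signs, and others mostly by call; of each further list, up to 3 called genes with the largest change and a mean of at least 5 CPM are named, and some genes that this rule picks are not reported here. Values per library of some other members were added after their values were seen. Alternatives were RLE scaling, DESeq2 1.42.0, other filters, 1 line alone, a replicate block, stricter thresholds and leaving out each library. Gene positions are from GENCODE (GRCh38), promoters from RefSeq (GRCh38.p14).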

Additional observations from a re-analysis of the deposited data

Results flagged for a closer look

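The change between resistant and sensitive cells differed between the lines for 17 members (44.7%, against 34.3% of all genes tested). This was by a test of the difference itself (edgeR's quasi-likelihood test, adjusted p under 0.05). As PC3 change minus DU145 change on the log2 scale, the values among stress factors were 1.44 for ATF4, -2.41 for ATF5, 0.78 for CEBPB and 1.91 for CHAC1. Among the enzymes they were 2.41 for PHGDH, -0.97 for PSAT1, 0.87 for PSPH, 1.38 for GPT2, 1.35 for CTH, 2.88 for CBS, 2.83 for ASS1 and 1.04 for ASL. For transporters and synthetases they were 1.69 for SLC7A5, 1.12 for SLC3A2, 1.53 for AARS and 1.22 for GARS, and for VLDLR 5.63. Those of CEBPB, PSAT1, GPT2, CTH, CBS and ASL were each lost in at least 1 fit with a library left out.

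The same test passed for genes named from the further lists. It gave 1.997 for EIF2AK1, -0.54 for EIF2S2, -0.78 for GCN1, -1.68 for HARS, -1.49 for RARS, -1.06 for HARS2 and 1.09 for FARS2. It gave 3.15 for NUPR1, 3.51 for JDP2, 2.46 for NDRG1, 3.84 for ALDH1L2, -0.79 for SFXN1, 5.09 for PRODH and 1.14 for ALDH4A1, and for the unfolded protein response 0.83 for EDEM1 and 1.02 for XBP1. With 1 library left out, the difference was lost in at least 1 fit for EIF2S2, GCN1, SFXN1 and EDEM1.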

How the results depend on the processing

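No called member value changed sign under any alternative. Members higher and lower in DU145 resistant cells numbered 3 and 19 with no low-count filter (7.1% and 9.12% of 37652 genes then tested) and 0 and 6 at an adjusted p under 0.01 (6.34% and 9.1% of all genes), and 3 were lower with a limit of 2-fold (9.89%); leaving out 1 library gave 0 to 3 higher and 7 to 17 lower. In PC3, 8 were higher at an adjusted p under 0.01 (11.8%) and 5 with a limit of 2-fold (12.6%), and 2 were lower with a limit of 2-fold (6.68%). In both lines, these counts with the limit of 2-fold were near the shares of all genes. The members' median in PC3 lay between 0.09 and 0.46 over the left-out libraries. The difference between the lines passed for 11 members at an adjusted p under 0.01 (20.1%). In PC3 sensitive against DU145 sensitive cells, 1 was higher at an adjusted p under 0.01 (22.3%) and 1 with a limit of 2-fold (18.1%). Over the left-out libraries, the members' median in this comparison lay between -1.28 and -0.80. The labels do not say that a replicate number marks a shared culture or day, and the libraries were not treated as paired. Deviations of same-numbered libraries correlated at 0.323 in DU145, where library 2 was above library 1 in both groups for 34 of 38 members, and at 0.0861 in PC3, and whether the numbers pair the DU145 libraries cannot be told from these values. With a replicate block, DU145 had 2 higher and 15 lower (16% and 18.7% of all genes), PC3 14 higher and 6 lower (21.5% and 20.7%), the difference passed for 23 (40.9% of all genes, against 34.3% without the block), and no call was lost. DESeq2 kept every member call but ATF3 in the comparison of sensitive cells, and RLE scaling kept every member call. A fit of DU145 alone lost CHAC1, ASL and GARS, and a filter of 1 CPM in 4 libraries lost CHAC1 in DU145 and PSAT1 for the difference. With no filter, the median of the difference over all genes was 0.15. Of 77 member values that were not called, 40 changed sign and 26 gained a call under at least 1 alternative. With 2 libraries a group, a left-out fit assumes that the lone library varies like the other groups.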
